A study of Mus musculus with 4 samples.

Results

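Some long RNAs that encode no protein are carriers of smaller RNAs, and 7 such noncoding genes, most of them host genes, were followed here in cultured regulatory B cells (Bregs): Mir155hg, Mir17hg, Malat1, Neat1, Gas5, Snhg1, and Snhg12. They were chosen from their levels in these same libraries, so the differences between libraries given below describe the genes and test nothing. Of the 7 genes, 5 had a row among the 31053 genes counted and were measured. Gas5 and Snhg1 had none, by symbol or by identifier, and were not analysed here. The genes are called host genes below, although in Malat1 and Neat1 no hosted miRNA or snoRNA is annotated.

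The cells were B cells from the spleen of wild-type (WT) mice. Bregs-CpG were purified B cells kept for 3 days with CpG ODN 1668, a DNA oligonucleotide that activates TLR9. Bregs-TLR were made from the same kind of culture and also received LPS, a TLR4 ligand, together with PMA and ionomycin, which activate protein kinase C and raise intracellular calcium, for the last 5 hours. CpG for 3 days was thus shared by both groups, and the labels list 2 samples of each. The number in each barcode ending, 5 to 8, names 1 of 4 libraries, and no label ties an ending to a sample. Libraries 5 to 8 are therefore described side by side, none is called Bregs-CpG or Bregs-TLR, and no difference between the groups was tested. The barcodes were placed on the last 19920 of 35989 matrix columns, a placement inferred and not documented, on which every value by library rests.

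After filtering, 18534 cells were kept, between 4003 and 5621 in a library, with 44842982 to 63638158 unique molecular identifiers (UMIs) each, where a UMI stands for 1 captured RNA molecule. Median depth was 8752, 8785, 10355, and 10077 UMIs per cell in libraries 5, 6, 7, and 8. Median mitochondrial shares were 7.22%, 7.18%, 4.61%, and 4.65%. B cell markers were found in all 4 libraries, with summed levels of 13914 and 14449 CPM (UMIs per 1000000 UMIs of the library) in libraries 5 and 6 and 7388 and 7299 CPM in libraries 7 and 8. All 6 markers of the list were lower in libraries 7 and 8, and Ms4a1, which encodes CD20, was at 1499, 1510, 32.0, and 37.0 CPM (named after its values were seen). Of the other cell types looked for, T cell markers summed to 0.0943 to 0.232 CPM with Cd3e, Cd4, Cd8a, and Trbc2 at 0, and all 3 NK cell markers were at 0. Of 6 myeloid markers, Lyz2 and S100a8 were at 0, and Cst3 made up most of a sum of 67.0 to 103 CPM. Erythroid markers summed to 4.59 and 4.30 CPM in libraries 5 and 6 and to 219 and 285 CPM in libraries 7 and 8, nearly all of it from 1 of 4 genes, Hbb-bt, with Hba-a1 and Hba-a2 at 0. These markers, depth, and the mitochondrial share moved with the same libraries as the host genes. The mitochondrial share is followed up below, and the part of the markers in the results was not tested. The 29 barcode sequences that occurred in more than 1 library were kept as separate cells.

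A microRNA (miRNA) is cut in steps from a longer primary transcript by Drosha with Dgcr8 in the nucleus and by Dicer1 in the cytoplasm, and then guides an Argonaute protein to messenger RNAs that pair with its seed, the bases 2 to 8. Mir155hg, also known as BIC, is the primary transcript of miR-155, which is induced when B cells are activated and is needed for normal germinal center responses. Mir17hg carries the miR-17-92 cluster, a target of MYC that favors lymphocyte survival and proliferation. Snhg12, Gas5, and Snhg1 are small nucleolar RNA (snoRNA) hosts, whose snoRNAs guide the modification of ribosomal RNA and are released mainly from introns. Malat1 and Neat1 stay in the nucleus, Malat1 at nuclear speckles and Neat1 as the scaffold of paraspeckles. The libraries capture mainly polyadenylated transcripts near their 3′ end, so the values are levels of the host transcript and not of a mature miRNA or snoRNA. How far transcripts without a poly(A) tail were captured was not tested. Counts are per gene, so the 4 annotated transcripts of Neat1, like the 4 of Malat1, were not told apart. The Neat1 values are therefore not read as the level of the paraspeckle scaffold.

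The positions are those of the GENCODE vM21 annotation on GRCm38. Mir155hg lies on the plus strand at chr16:84703167-84715245, and the miR-155 hairpin, at chr16:84714140-84714204, lies in an exon of both annotated transcripts. Mir17hg lies on the plus strand at chr14:115042879-115046727, and its 6 hairpins, from Mir17 at chr14:115043671-115043754 to Mir92-1 at chr14:115044427-115044506, lie within an exon of its 1 annotated transcript. Malat1 (chr19:5795690-5802672) and Neat1 (chr19:5824708-5845478) are neighbors on the minus strand with no miRNA or snoRNA annotated on that strand inside them. Snhg12 lies on the plus strand at chr4:132308623-132311024 and holds 5 annotated snoRNA entries, 2 of them for Snora16a. No other gene of the feature table overlapped any of the 5 measured genes.

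The mature miRNAs that the measured Mir155hg and Mir17hg transcripts can give rise to are shown because their seeds set which messenger RNAs they pair with. The sequences are from RefSeq (GRCm38.p6), where all 7 hosted hairpins were matched, and the seed is in capitals. The main arm of miR-155 lies at chr16:84714143-84714165, and no other mature mouse entry in the table shared its seed.
miR-155-5p: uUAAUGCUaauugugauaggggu
miR-155-3p: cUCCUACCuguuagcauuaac
In the miR-17-92 cluster, miR-17-5p and miR-20a-5p share a seed, miR-19a-3p and miR-19b-3p share another, and the main arms of miR-18a and miR-92a each have their own.
miR-17-5p: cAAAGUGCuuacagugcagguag
miR-20a-5p: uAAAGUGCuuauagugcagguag
miR-19a-3p: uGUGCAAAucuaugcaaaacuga
miR-19b-3p: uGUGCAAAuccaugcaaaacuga
miR-18a-5p: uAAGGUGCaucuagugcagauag
miR-92a-3p: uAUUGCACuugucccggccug
As an example of what Snhg12 carries, Snord99, a C/D box snoRNA of 74 bases at chr4:132310691-132310764, lies in an intron of 6 and an exon of 3 of the 10 annotated Snhg12 transcripts. It is shown as DNA from the GENCODE transcripts, with box C and box D in capitals.
Snord99: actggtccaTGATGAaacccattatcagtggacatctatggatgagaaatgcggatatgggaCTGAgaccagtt

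Mir155hg was at 18.4 CPM (95% interval 17.2 to 19.7) in library 5, 17.9 CPM (16.8 to 19.1) in library 6, 128 CPM (125 to 130) in library 7, and 112 CPM (109 to 115) in library 8. Intervals are exact Poisson intervals and cover counting error only. The values rest on 825, 924, 8114, and 5103 UMIs. Libraries 7 and 8 lay far above libraries 5 and 6, with the highest value, in library 7, 7.13 times the lowest, in library 6, a log2 ratio of 2.83 (2.73 to 2.93). Libraries 5 and 6 did not differ beyond counting error (log2 ratio 0.04, -0.10 to 0.18), whereas library 7 was slightly above library 8 (0.19, 0.14 to 0.24).

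Mir17hg followed the same order. It was at 8.05 CPM (7.24 to 8.93) in library 5, 6.55 CPM (5.87 to 7.28) in library 6, 26.7 CPM (25.4 to 28.0) in library 7, and 24.2 CPM (22.8 to 25.7) in library 8. The highest value was 4.08 times the lowest (log2 ratio 2.03, 1.86 to 2.20), and the gap between library 8 and library 5 was 3.01-fold. Both neighbors in this order differed slightly beyond counting error, library 7 from library 8 (log2 ratio 0.14) and library 5 from library 6 (0.30).

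Snhg12 was at 47.5 CPM (45.5 to 49.6), 48.6 CPM (46.7 to 50.5), 121 CPM (118 to 123), and 126 CPM (122 to 129) in libraries 5, 6, 7, and 8. Here library 8 was highest and library 5 lowest, 2.64-fold apart (log2 ratio 1.40, 1.33 to 1.47), and libraries 5 and 6 were not distinguishable.

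The 2 nuclear RNAs had the opposite order. Malat1 was at 14502 CPM (14467 to 14537) in library 5, 14778 CPM (14745 to 14812) in library 6, 9012 CPM (8988 to 9035) in library 7, and 9987 CPM (9958 to 10016) in library 8, which is 155, 162, 102, and 114 UMIs in an average cell. Its share of all UMIs was 1.45%, 1.48%, 0.901%, and 0.999%. The highest value was 1.64 times the lowest (log2 ratio 0.71, 0.71 to 0.72), the smallest ratio of the 5 genes. All 4 libraries differed from each other beyond counting error alone. Malat1 varied more between cells than counting gives (variance 6.25 to 9.08 times the mean after thinning), and the intervals leave this out. The small difference between libraries 5 and 6 is therefore not read as resolved. Neat1 was at 49.0 CPM (46.9 to 51.1), 46.7 CPM (44.8 to 48.6), 18.8 CPM (17.7 to 19.9), and 18.3 CPM (17.1 to 19.6), 2.67-fold between library 5 and library 8 (log2 ratio 1.42, 1.30 to 1.53). Neither libraries 5 and 6 nor libraries 7 and 8 could be told apart for Neat1.

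**Figure D1:**
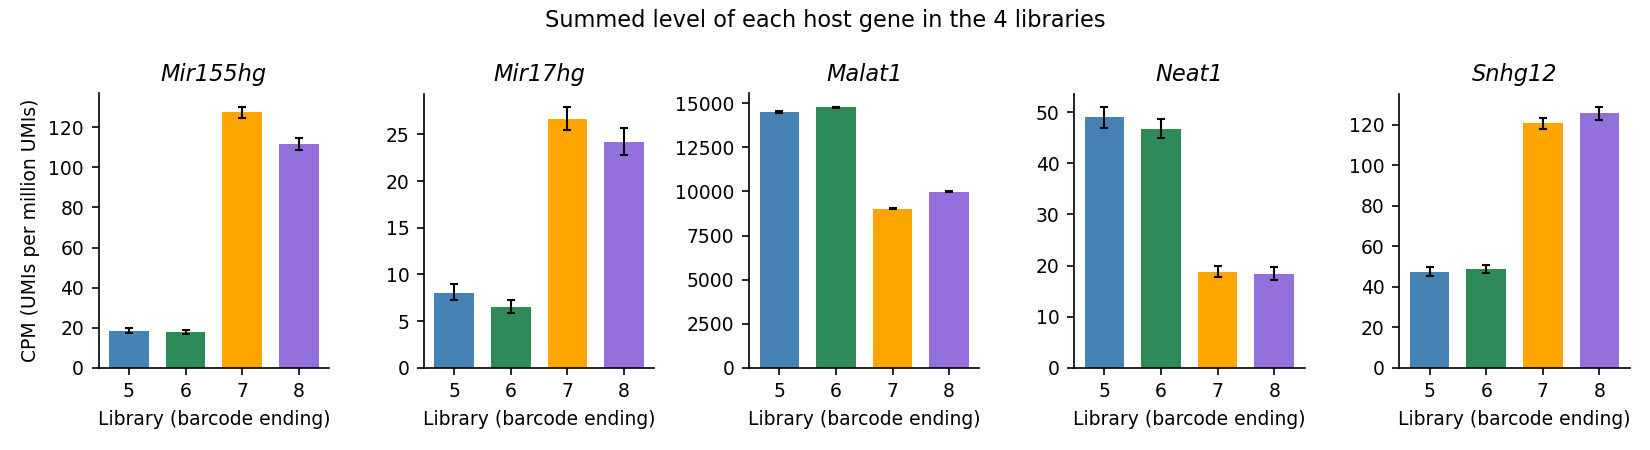
Level of each measured host gene in CPM (UMIs per 1000000 UMIs, linear axis from 0, a scale of its own for each gene) in libraries 5 to 8. Bars are sums over the kept cells and lines are exact Poisson 95% intervals; Mir155hg, Mir17hg, and Snhg12 are higher in libraries 7 and 8, and Malat1 and Neat1 are higher in libraries 5 and 6.

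In 4 of the 5 genes, the highest library was at least 2 times the lowest, all but Malat1. Such a spread was common in these libraries, being found in 33.6% of the 10433 genes with at least 1 CPM over all cells, whose median log2 ratio of highest to lowest was 0.71. Libraries 7 and 8 were both above libraries 5 and 6 for 3 of the 5 genes and for 51.1% of all genes, and libraries 5 and 6 were both above for 2 of the 5 genes and for 39.6%. For 3 genes, Mir155hg, Mir17hg, and Snhg12, even the lower of libraries 7 and 8 was at least 2 times the higher of libraries 5 and 6, against 12.2% of all genes. The reverse held for 1 gene, Neat1, against 13.0%. Since the levels chose the genes, nothing is read from these counts.

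The share of cells with at least 1 UMI followed the same order as the levels. For Mir155hg, it was 14.4% (95% Clopper-Pearson interval 13.4% to 15.5%) and 14.2% (13.2% to 15.2%) in libraries 5 and 6 and 61.7% (60.4% to 62.9%) and 58.6% (57.0% to 60.1%) in libraries 7 and 8. A deeper cell has more chances of a UMI, so each cell was also thinned to 3000 UMIs, which left out between 5 and 21 shallower cells in a library. The Mir155hg share was then 4.18%, 4.08%, 29.9%, and 26.5%, with the same libraries high. Mir17hg had a UMI in 7.44%, 6.47%, 24.0%, and 22.6% of cells and, after thinning, in 2.36%, 1.68%, 8.13%, and 6.50%. Neat1 had one in 35.1%, 35.1%, 16.9%, and 16.4% of cells, and in 13.8%, 13.9%, 5.36%, and 5.52% after thinning. Snhg12 had one in 35.1%, 36.3%, 68.4%, and 69.4%, and in 13.3%, 12.4%, 29.7%, and 31.5%.

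Malat1 was found in 99.9% to 100% of the cells of a library, also after thinning, so its detection carries no information here. Its median after thinning was 45, 45, 26, and 29 UMIs per cell in libraries 5 to 8. No cell type that lacks these genes was present as a reference for free RNA. Jchain, an antibody-joining chain whose UMIs were concentrated in 1 small cluster described below (87.5% to 99.3% of its UMIs), was found in 0.266% to 0.845% of the cells outside that cluster, at median depths of 8732 to 10351 UMIs. The shares of cells with a UMI of the 5 host genes were above that level in each library, although free RNA scales with a gene's own abundance.

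**Figure D2:**
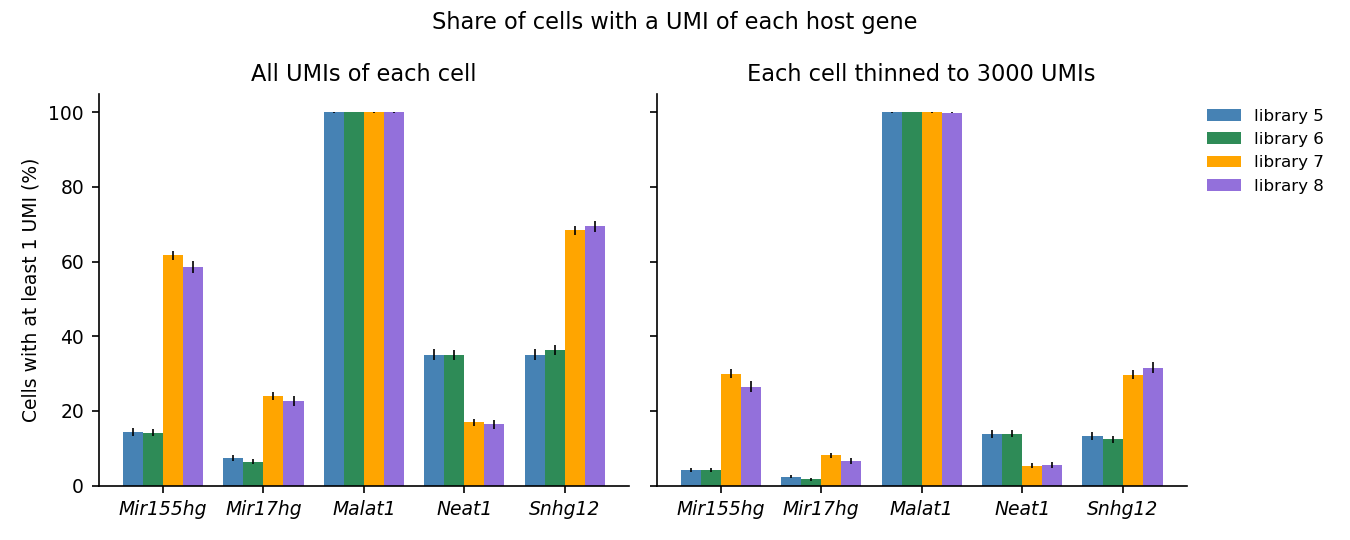
Share of cells with at least 1 UMI of each host gene (percent, axis from 0) in libraries 5 to 8, with all UMIs of a cell (left) and with each cell thinned to 3000 UMIs (right); lines are Clopper-Pearson 95% intervals. Mir155hg is found in 29.9% of the thinned cells of library 7 against 4.18% in library 5, and Malat1 in nearly every cell.

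The signal per cell was low for 4 of the genes. At 3000 UMIs per cell, 7.80% of the cells of library 7 and 5.95% of those of library 8 had at least 2 Mir155hg UMIs, against 0.358% and 0.255% in libraries 5 and 6, and the highest count in any cell was 8. Before thinning, the tenth of cells with the most Mir155hg held 77.5% and 78.7% of its UMIs in libraries 5 and 6. In libraries 7 and 8, it held 38.4% and 39.3%. Such a share depends on depth and on how many cells had a UMI at all. For Mir155hg these were 14.4%, 14.2%, 61.7%, and 58.6% of the cells of libraries 5 to 8, so no concentration in particular cells is read from it. The variance of Mir155hg over thinned cells was 1.12 to 1.30 times its mean, and for Mir17hg 0.983 to 1.02 times, where counting alone gives 1. For Malat1 it was 6.25 to 9.08 times its mean. This ratio can grow with the mean, and the thinned median was 26 to 45 UMIs per cell for Malat1. It was 0 for Mir155hg and Mir17hg, so the ratios are not compared between the genes.

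Cells of libraries 7 and 8 had lower mitochondrial shares, and the host genes were therefore also summed over cells of like share, a split chosen after seeing the data. Libraries 5 and 6 had 143 and 207 cells under 5%, and libraries 7 and 8 had 182 and 162 cells between 7.5% and 10%. Among cells under 5%, Mir155hg was at 14.8 CPM (9.28 to 22.4), 32.5 CPM (25.3 to 41.2), 134 CPM (131 to 138), and 114 CPM (110 to 118). Between 5% and 7.5%, it was at 20.6, 18.5, 115, and 108 CPM, and between 7.5% and 10%, at 15.7, 15.6, 135, and 117 CPM. Libraries 7 and 8 lay above libraries 5 and 6 in all 3 ranges, with the lower of the former 3.49, 5.23, and 7.44 times the higher of the latter. The corresponding ratios were 2.11, 2.73, and 4.16 for Mir17hg and 1.65, 2.18, and 2.88 for Snhg12. For Neat1, libraries 5 and 6 remained above, by 2.69-, 2.17-, and 2.33-fold.

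Malat1 was closer between libraries in the cells with the most mitochondrial UMIs. Between 7.5% and 10%, it was at 15002, 15496, 11407, and 14286 CPM, so that library 8 was 1.05-fold below library 5, while in the ranges under 5% and from 5% to 7.5% the lower of libraries 5 and 6 was 1.35 and 1.40 times the higher of libraries 7 and 8.

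**Figure D3:**
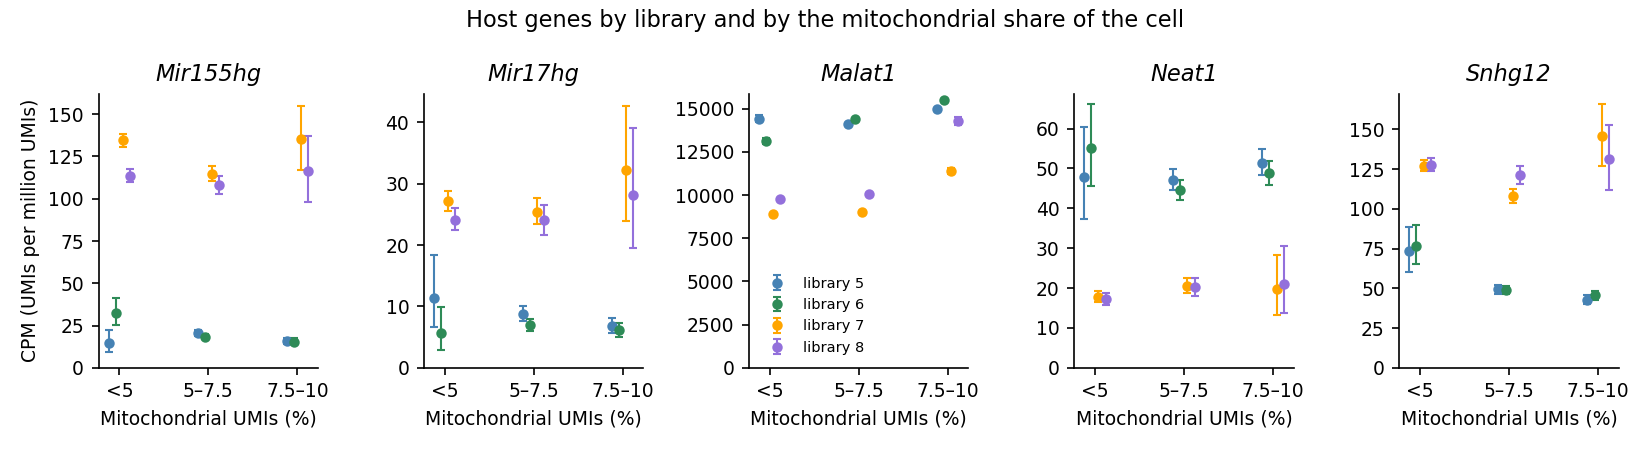
Level of each host gene in CPM (linear axis from 0) by the mitochondrial share of the cell, for libraries 5 to 8; points are sums over cells and lines are exact Poisson 95% intervals. Libraries 7 and 8 lie above libraries 5 and 6 in each range for Mir155hg, Mir17hg, and Snhg12 and below them for Neat1 and Malat1.

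Clustering on 1974 variable genes, without the host genes, gave 7 clusters, named here A to G by size. Clusters A (7081 cells, with Ltb and Cd2 among its leading genes), D (882 cells, with the mitotic genes Mki67 and Ccnb2), and E (807 cells, with the chemokines Ccl3 and Ccl4 and with Ly6d) held nearly only cells of libraries 5 and 6. Clusters B (6828 cells, led by Hbb-bt, Cd86, and Il10), C (2166 cells, with DNA replication genes such as Mcm3), and F (523 cells, with the mitotic genes Cdk1 and Ccnb1) held nearly only cells of libraries 7 and 8. Clusters D and F are called mitotic for their mitosis markers, which summed to 1865 and 2024 CPM, against 148 CPM in cluster C. Their S phase markers were also high, at 1177 and 1239 CPM, against 1288 CPM in cluster C, so they are not mitotic cells alone. Cluster G (247 cells, led by Jchain) had 64, 93, 56, and 34 cells of libraries 5 to 8. Clusters were made from these cells, so the levels by cluster are a description, and a library enters a cluster below with at least 50 cells.

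Within libraries 5 and 6, Mir155hg was highest in cluster E, at 48.5 CPM (42.4 to 55.3) and 50.8 CPM (44.7 to 57.6), and lowest in cluster A, at 12.7 and 11.6 CPM. That is a 3.82- and 4.37-fold difference between clusters of the same library. Cluster D was between them at 23.1 and 25.7 CPM. Among clusters B, C, and F of libraries 7 and 8, Mir155hg was more even, at 137 and 117 CPM (cluster B), 107 and 101 CPM (cluster C), and 107 and 96.6 CPM (cluster F). The lowest of these was still above the highest cluster of libraries 5 and 6. In cluster G, the only one with enough cells of 3 libraries, Mir155hg was at 18.8 CPM (10.0 to 32.2) in library 5, 12.6 CPM (6.53 to 22.1) in library 6, and 257 CPM (222 to 296) in library 7, from 13, 12, and 196 UMIs. Library 7 thus stood above libraries 5 and 6 within this cluster too.

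Within libraries 5 and 6, Mir17hg was likewise highest in cluster E, at 21.1 CPM (17.2 to 25.7) and 18.5 CPM (14.9 to 22.8). Cluster A had 5.57 and 4.70 CPM. In libraries 7 and 8, clusters B, C, and F ranged from 19.1 to 27.1 CPM. Unlike for Mir155hg, cluster E of library 5 lay within that range, and cluster E of library 6 lay just below it. In cluster G, Mir17hg was at 5.79, 3.16, and 26.2 CPM in libraries 5, 6, and 7, from 4, 3, and 20 UMIs. Snhg12 was also highest in cluster E among the clusters of libraries 5 and 6, at 91.6 CPM (83.1 to 101) and 84.6 CPM (76.6 to 93.2), against 39.4 and 42.7 CPM in cluster A. In libraries 7 and 8, it was at 129 and 133 CPM in cluster B and 88.6 and 99.0 CPM in the mitotic cluster F. In cluster G, Snhg12 was at 17.4, 27.4, and 87.9 CPM.

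Malat1 and Neat1 were highest in the Jchain cluster G in each library with enough cells. Malat1 was at 26600 and 22848 CPM there in libraries 5 and 6 and at 13563 CPM in library 7, while cluster A was at 15677 and 16002 CPM in libraries 5 and 6 and cluster B at 9409 and 10464 CPM in libraries 7 and 8. The mitotic cluster D of libraries 5 and 6 had 10049 and 10321 CPM, close to cluster B, and cluster C of libraries 7 and 8 had the lowest Malat1, at 8056 and 8793 CPM. Neat1 was at 103 CPM (80.2 to 130), 140 CPM (117 to 166), and 89.2 CPM (69.2 to 113) in cluster G of libraries 5, 6, and 7, whose intervals for libraries 5 and 7 overlap. Elsewhere the levels of Neat1 were 56.0 and 50.6 CPM (cluster A), 25.4 and 26.3 CPM (cluster E), 19.9 and 19.4 CPM (cluster B), and 13.4 and 14.4 CPM (cluster C). For Neat1, cluster E of libraries 5 and 6 was therefore nearer to the clusters of libraries 7 and 8 than to cluster A.

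**Figure D4:**
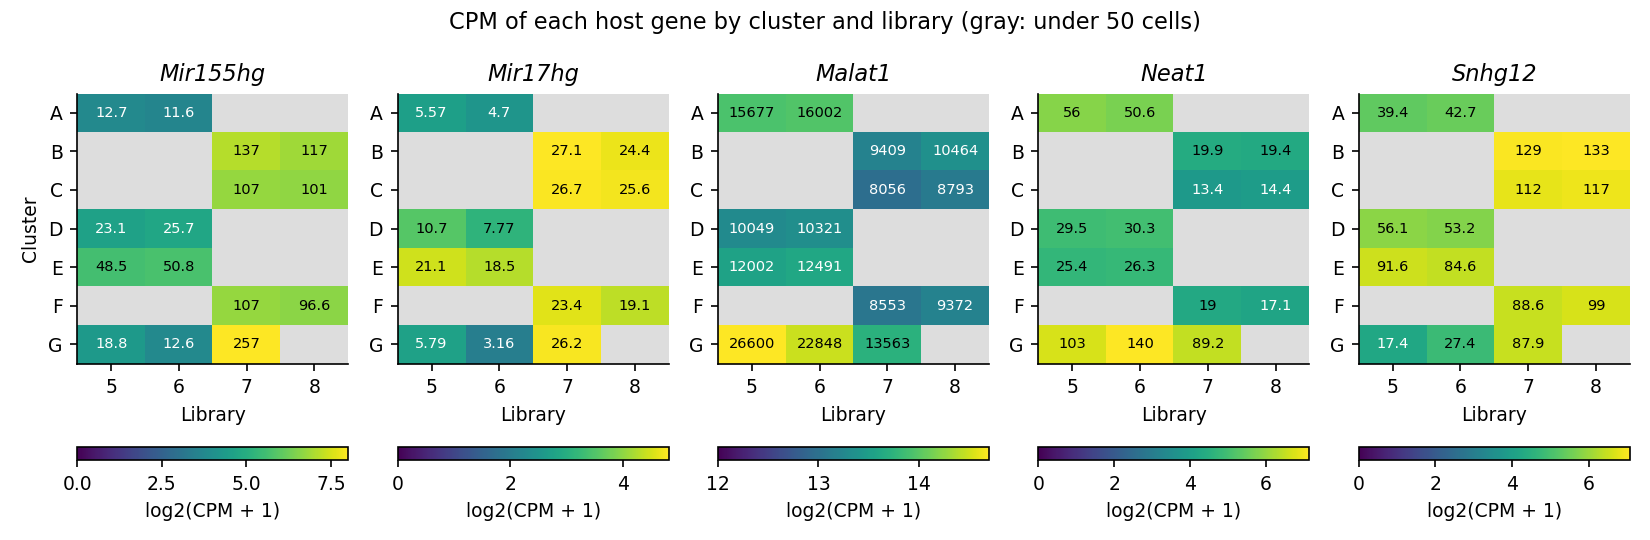
Level of each host gene by cluster (rows A to G) and library (columns 5 to 8), with the CPM printed in each field and log2(CPM + 1) as color on a scale of its own for each gene; gray fields have under 50 cells. Within libraries 5 and 6, cluster E has the highest Mir155hg, Mir17hg, and Snhg12, and cluster G has the highest Malat1 and Neat1.

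Il10, the cytokine by which Bregs are commonly recognized, was at 13.7, 11.1, 255, and 253 CPM in libraries 5 to 8, the same order as Mir155hg. To look within a library, thinned cells with and without an Il10 UMI were compared. In library 5, the 130 cells with Il10 had 38.5 CPM (21.5 to 63.4) of Mir155hg and the 4061 without had 14.4 CPM (12.4 to 16.7). In library 6, the 129 cells with Il10 had 33.6 CPM (17.9 to 57.4) and the others 14.1 CPM (12.1 to 16.2), so that in both libraries Mir155hg was higher beside Il10, from 15 and 13 UMIs. Cluster E, with the most Mir155hg in libraries 5 and 6, also had the most Il10 there, at 52.8 and 35.4 CPM. Cluster A had 7.49 and 6.37 CPM of Il10. The part of the clusters in the difference beside Il10 was not tested. In libraries 7 and 8, where 2507 and 1825 thinned cells had Il10, Mir155hg was at 137 and 117 CPM with it and 132 and 113 CPM without it, within counting error. Cells without an Il10 UMI in libraries 7 and 8 thus had more Mir155hg than cells with one in libraries 5 and 6. Before thinning, 70.3% and 71.6% of the cells of libraries 7 and 8 had an Il10 UMI, and after it 44.8% and 45.8%. Some cells counted as without Il10 had therefore lost it in thinning, which brings the compared cells closer together. Mir17hg was higher beside Il10 in library 5 (30.8 against 7.31 CPM) but not beyond counting error in library 6 (7.75 against 5.53 CPM, from 3 UMIs) or library 7 (29.3 against 27.5 CPM). In library 8, Mir17hg was at 19.2 CPM (15.7 to 23.2) beside Il10 and 25.5 CPM (21.7 to 29.6) without it, with overlapping intervals. The log2 ratio was -0.41 (-0.78 to -0.05). This interval is not adjusted for the number of genes and libraries compared, so no difference is read from it. For Snhg12, the values were 82.1 against 47.1 CPM in library 5 and 54.3 against 45.3 CPM in library 6, the latter with overlapping intervals, and in libraries 7 and 8 they were within counting error (119 against 120 CPM and 128 against 129 CPM). Malat1 differed by 1.02- to 1.03-fold. Neat1 intervals overlapped between cells with and without Il10 in all 4 libraries.

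**Figure D5:**
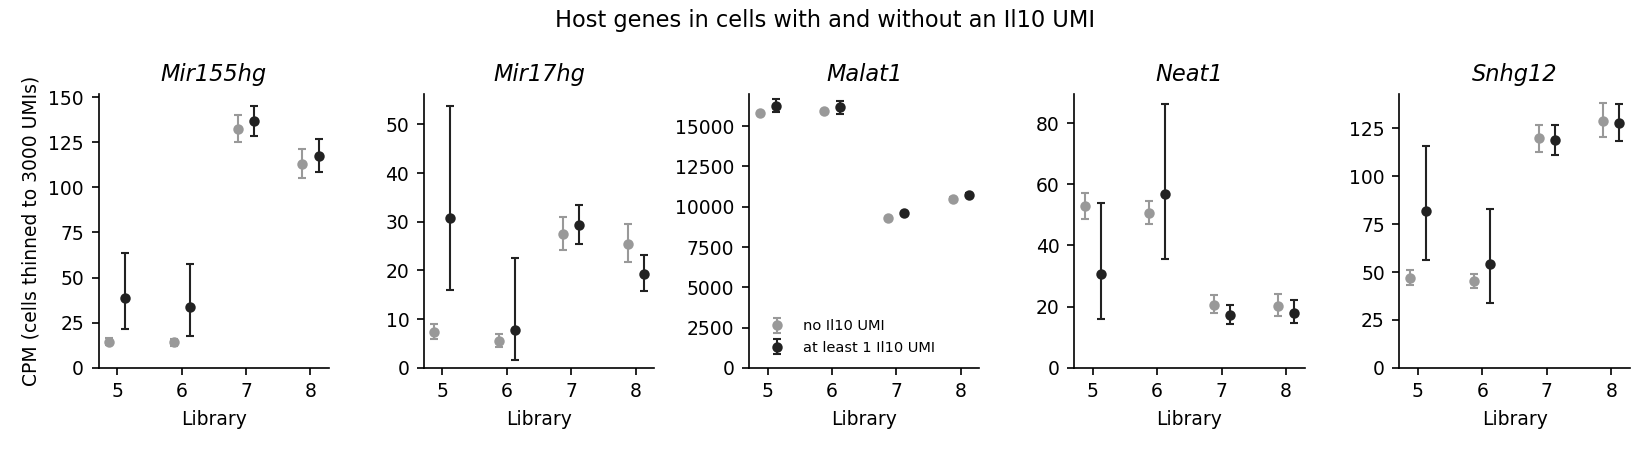
Level of each host gene in CPM (cells thinned to 3000 UMIs, linear axis from 0) in cells with at least 1 Il10 UMI (black) and with none (gray), for libraries 5 to 8; lines are exact Poisson 95% intervals. Mir155hg is higher beside Il10 in libraries 5 and 6, and its intervals overlap in libraries 7 and 8.

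Cells in division were looked at in the same way through Mki67, which encodes the proliferation antigen Ki-67. Malat1 was lower in cells with an Mki67 UMI in libraries 5 and 6, at 12289 against 16060 CPM and 11898 against 16209 CPM. In libraries 7 and 8 it was not lower, at 9449 against 9410 CPM and 10943 against 10602 CPM. By cluster, without thinning, Malat1 was at 8553 and 9372 CPM in the mitotic cluster F of libraries 7 and 8. That was below cluster B (9409 and 10464 CPM) and above cluster C (8056 and 8793 CPM). Snhg12 was lower in Mki67-positive cells of libraries 7 and 8, at 69.9 against 121 CPM and 73.1 against 130 CPM, and not in libraries 5 and 6, at 55.3 against 47.8 CPM and 55.9 against 44.8 CPM. Neat1 was lower in Mki67-positive cells of library 5, at 21.3 against 53.9 CPM, from 15 UMIs. In libraries 6, 7, and 8 the Neat1 intervals overlapped, in library 6 from 42 UMIs of Mki67-positive cells. Mir155hg and Mir17hg intervals overlapped in all 4 libraries. By cluster, Neat1 was at 29.5 and 30.3 CPM in the mitotic cluster D of libraries 5 and 6. That was below cluster A (56.0 and 50.6 CPM) but not below cluster E (25.4 and 26.3 CPM). In libraries 7 and 8, the mitotic cluster F had 19.0 and 17.1 CPM of Neat1, against 19.9 and 19.4 CPM in cluster B, with overlapping intervals.

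Other host genes were taken from lists of known genes. These lists and those that follow were chosen with earlier results of these data known, so their counts test nothing. Of 10 genes listed as miRNA hosts, 6 had a row and 4, Mir155hg and Mir17hg among them, reached 1 CPM, and all 4 spread at least 2-fold, against 33.6% of all genes. Since Mir155hg and Mir17hg were chosen from their levels, nothing is read from this count. The other two were higher in libraries 5 and 6. Mir142hg, the host of the blood cell miRNA miR-142, was at 66.9, 48.2, 30.9, and 36.2 CPM, and Mirt1, a long noncoding RNA on the list that is named for myocardial infarction and not for a miRNA, was at 26.7, 29.1, 9.71, and 9.98 CPM. Of 21 snoRNA hosts, 8 had a row and 7 reached 1 CPM, and 3 of these 7 spread at least 2-fold, a share near the 33.6% of all genes. Beside Snhg12, they were Snhg9, at 5.26, 6.37, 12.2, and 14.3 CPM, and Snhg18, at 28.9, 26.2, 2.83, and 3.26 CPM, named after their values were seen. Epb41l4aos (32.3 to 38.7 CPM) and Snhg6 (24.1 to 32.3 CPM) spread less. Of the other nuclear noncoding RNAs listed, 2 of 8 reached 1 CPM and neither spread 2-fold, Kcnq1ot1 at 278, 289, 388, and 362 CPM and Tug1 at 23.6 to 26.4 CPM.

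Proteins that act on the hosted RNAs followed. All 14 miRNA processing genes were measured, and 6 spread at least 2-fold, a share near the 33.6% of all genes. Ran, the GTPase that powers nuclear export, was at 366, 363, 1337, and 1223 CPM, and Xpo5, which exports miRNA precursors with it, was at 5.20, 4.67, 16.7, and 16.5 CPM. Tnrc6b, a partner of Argonaute in silencing, was at 117, 121, 36.1, and 35.7 CPM, and its relative Tnrc6a at 67.3, 63.5, 71.6, and 72.7 CPM. Ago4 was at 14.5, 16.0, 1.51, and 1.45 CPM, whereas Ago2, the Argonaute that cuts its targets, was at 46.7 to 57.6 CPM. The list thus held genes with either order and genes with little spread, Dicer1 (38.8 to 43.8 CPM) among the latter. Xpo5, Ago4, Ago2, and Dicer1 were named after their values were seen.

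The snoRNP proteins package the snoRNAs. Of the 8 measured, all were higher in libraries 7 and 8, against 51.1% of all genes, and for 7 the lower of libraries 7 and 8 was at least 2 times the higher of libraries 5 and 6, against 12.2% of all genes. The median log2 ratio of highest to lowest was 1.67 for the list and 0.71 over all genes. Snu13 was at 197, 195, 496, and 475 CPM and Nhp2 at 144, 142, 437, and 435 CPM, while the exception, Nop10, was at 311, 288, 356, and 359 CPM. Nonsense-mediated decay removes the spliced transcripts of several snoRNA hosts, and none of its 10 genes spread 2-fold (median log2 ratio 0.32), against 33.6% of all genes. None of the 8 paraspeckle proteins did either, and 7 of them were higher in libraries 7 and 8, against 51.1% of all genes. Among these, Sfpq was at 219, 232, 381, and 348 CPM and Hnrnpk at 323, 321, 449, and 405 CPM. The lists were chosen with earlier results of these data known, so nothing is read from the counts of this paragraph.

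Known targets of the hosted miRNAs were counted without any reading of miRNA activity, which these libraries do not measure. Of 8 measured miR-155 targets, 3 spread at least 2-fold, near the 33.6% of all genes. Spi1, which encodes PU.1, was at 97.7, 98.4, 98.4, and 90.1 CPM, and Rheb was at 83.2, 85.6, 145, and 131 CPM. Of 7 miR-17-92 targets, 2 spread at least 2-fold, near the share of all genes (33.6%), and 6 were higher in libraries 7 and 8, against 51.1%. Bcl2l11, which encodes the death factor BIM, was at 59.6, 60.2, 94.8, and 86.3 CPM.

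Of 9 measured transcription factor genes known to act on Mir155hg or Mir17hg, 5 spread at least 2-fold, against 33.6% of all genes. Junb, a subunit of AP-1, was at 73.7, 67.3, 354, and 343 CPM, Rel, a subunit of NF-κB, at 98.0, 97.4, 217, and 213 CPM, and Jun at 167 to 181 CPM. Myc, the known activator of the miR-17-92 cluster, was at 15.3, 15.4, 63.8, and 60.0 CPM. Myb, also on this list, had the opposite order, at 23.9, 22.3, 5.06, and 5.10 CPM. Myc and Myb were named after their values were seen. Of the 9 genes, 7 were higher in libraries 7 and 8, against 51.1% of all genes. The opposite held for 1, Myb, against 39.6% of all genes. This list too was chosen with earlier results of these data known, so nothing is read from its counts. In the RefSeq promoter windows, neither Mir155hg nor Mir17hg held the AP-1 motif TGANTCA, the NF-κB-type motif GGNNTTTCC, or the E-box CACGTG on either strand. These motifs occur in 7.81%, 5.82%, and 7.15% of all 32851 windows. The windows lie 9856 bases (Mir155hg) and 1511 bases (Mir17hg) from the GENCODE start of the gene, so they say nothing about that start. Of the other measured genes with a window, Snhg12 held 1 match of the NF-κB-type motif and Malat1 held none.

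Over the 15 sums of a cluster and a library with at least 50 cells, the levels of the host genes were compared with those of 2338 genes at 50 CPM or more, as Pearson correlation of log2(CPM + 1). The sums share libraries and depth, so the values describe likeness and carry no test. Mir155hg was most like Eprs (r = 0.96), a tRNA synthetase, followed by Timm8b, Zc3h15, Eif3c, and Pabpc4 (each 0.95 to 0.96). Mir17hg was most like Wdr43 (0.99), a ribosome assembly factor, and then Eef1e1, Gnl2, Rrs1, and Nsun2 (0.97 to 0.98). Snhg12 was most like Noc2l, Ddx18, and Wdr36 (each 0.99). Malat1 and Neat1 both had Rabac1 first (0.96 and 0.98), followed by Tmem123 and Clec2d for Malat1 and by Tmem59 and Pdia4 for Neat1. Between the host genes, r was 0.94 for Mir155hg and Mir17hg, 0.91 for Mir17hg and Snhg12, 0.92 for Malat1 and Neat1, and -0.87 for Malat1 and Snhg12.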

How the data were processed

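Single cell libraries (Chromium Single Cell 3′ v3) were sequenced by the authors, whose processing notes name bcl2fastq, Cell Ranger (version 3.1.0), and the build mm10. Libraries were merged and, as the paper states, normalized by the aggr step of Cell Ranger, which can even out read depth between libraries. The deposited values are whole UMI counts per gene and cell, and the depths given per library may not be those before that step. The matrix has 35989 columns and 19920 barcodes. Barcodes were placed on the last columns in order. The largest shift in mean expression along the matrix (percentile 100) then fell on the start of library 7. Shifts at the starts of libraries 5 and 8 were at percentiles 99.3 and 84.4, while the start of library 6 showed none (percentile 50.1). The 16069 columns before the barcodes were not used. Library numbers carry no sample name, so the groups were not compared, libraries were not averaged, and no p-value was computed.

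Cells with at least 1000 genes and under 10% mitochondrial UMIs were kept (559 had fewer genes and 1110 more mitochondrial UMIs). Doublets were not removed. UMIs were summed per library or cluster and divided by all UMIs (CPM). Intervals at 95% were exact (SciPy, version 1.17.1), cover counting error only, and leave out variation between cells, mice, or cultures. Clusters were formed in Seurat (version 5.3.0; 20 components, 20 neighbors, resolution 0.3) after the host genes and the listed genes other than cell type markers had been removed from 2000 variable genes. The calls of fold and order were tested on simulated data, which checks the calculation and says nothing about these libraries. The scaling alternatives used edgeR (version 4.0.16) and DESeq2 (version 1.42.0) for factors alone.

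The host genes and gene lists were chosen with earlier results of these data known. Named genes were the 7 host genes, up to 3 genes of each list with the highest CPM, and the genes of highest likeness; others are said to be named after their values were seen. The summed levels of the remaining marker lists were 1614, 1779, 390, and 339 CPM for plasma cells, 303, 320, 643, and 610 CPM for S phase, and 331, 373, 212, and 238 CPM for mitosis in libraries 5 to 8. Some genes of the lists and of the leading genes of clusters are counted but not reported here by name.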

Additional observations from a re-analysis of the deposited data

How the results depend on the processing

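The assignment of barcodes to matrix columns decides every value given by library. With the barcodes on the first columns, where no library start fell above percentile 89.4, the log2 ratio of Mir155hg between libraries 7 and 6 was -0.028, 1 of the 5 genes spread 2-fold, and the ratios of Malat1 and Snhg12 turned to -0.57 and -0.55. Among cells under 5% mitochondrial UMIs, 3 of the 5 genes spread 2-fold, with Snhg12 at a log2 ratio of 0.80. Under the other settings 4 did, and all 5 passed a limit of 1.5-fold. The log2 ratio of Mir155hg, 2.83 in the reported values, was 2.05 among cells under 5% mitochondrial UMIs (143 and 207 cells in libraries 5 and 6), 2.66 without mitochondrial, ribosomal protein, and immunoglobulin genes in the denominator, 2.69 with TMM scaling, 2.70 with DESeq2 size factors, 3.12 as a mean over cells, 3.20 after thinning, and 2.98 without the 1531 cells above 2 times the median UMIs. The share of all genes that spread 2-fold was 28.9% at 10 CPM or more. At resolution 0.1, which gave 5 clusters and put all 807 cells of cluster E together with cluster A, the log2 ratio of the highest to the lowest cluster for Mir155hg fell from 1.94 to 0.42 in library 5 and from 2.13 to 0.66 in library 6. Cluster G had 34 cells of library 8 and 56 of library 7. With clusters of at least 20 cells, it entered for library 8 and the same ratio rose there from 0.28 to 1.46, and with at least 100 cells it left library 7, where the ratio fell from 1.26 to 0.35. No paired analysis was possible because the barcode endings carry no replicate number.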

Other observations

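Several values outside the comparisons above concern single genes of the lists. Mzb1, a chaperone of antibody secretion, was at 1441, 1548, 154, and 157 CPM in libraries 5 to 8, whereas Xbp1, the transcription factor of secretory cells, was at 84.7, 91.7, 112, and 107 CPM and Sdc1, which encodes the plasma cell antigen CD138, was at 0.201, 0.213, 7.45, and 6.15 CPM. The genes of the plasma cell list therefore did not share 1 order over the libraries. Myb, given above among the transcription factor genes, was at 23.9, 22.3, 5.06, and 5.10 CPM, the opposite order to Myc. Prkra, a partner of Dicer1, was at 5.95, 6.49, 1.45, and 1.20 CPM, the same order as Ago4 and Tnrc6b. These genes were named after their values were seen.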
